A study of Mus musculus with 12 samples.

Results

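The IgE receptor and amine genes of mast cells and basophils were followed in cultures of mouse bone marrow progenitors that all carried retroviral Hoxa9. The set holds 8 genes: the receptor chains Fcer1a, Ms4a2 and Fcer1g, the amine genes Hdc, Tph1 and Slc18a2, and the surface receptors Cd200r3 and Mrgprb1. Each gene was taken from the probe set annotated to its symbol alone, and all 8 were found, each with a single such probe set, among the 16015 probe sets that have a gene symbol. The levels are RMA values on the log2 scale, where a difference of 1 is a doubling, and a level says nothing about another gene's level because every probe set has its own brightness.

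The 12 arrays fall into 5 groups. All cultures came from bone marrow of C57B/6 mice labelled female, 12 weeks old and treated with 5-FU, a drug that kills cycling cells and enriches for early progenitors. All were transduced with an MSCV construct, a retroviral vector, and grown in DMEM with 15% serum, IL3, SCF and IL6. IL3 and SCF are also the cytokines in which mast cells are commonly grown from marrow. The group here called MIG holds 3 arrays of wild-type cells given Hoxa9 and the empty vector MIG. Another 3 arrays are of wild-type cells given Hoxa9 and miR-155. The group here called the knockout holds 3 arrays of cells from miR-155 KO mice, given Hoxa9 and MIG. There are 2 arrays of wild-type cells given Hoxa9 and another empty vector, MIY, and 1 of wild-type cells given Hoxa9 and its cofactor Meis1. The title of the Meis1 array alone carries the mark 3w, which the labels do not explain, so it is not known whether this culture differed in time. The labels do not say how the knockout was made, how many mice gave each culture, or whether cells were sorted. The series' design text counts 3 independent experiments for a condition, and it names the MIY cells as the control of the miR-155 cells. The file holds no probe set named for miR-155, so its own level was not measured.

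The high-affinity IgE receptor is built from an alpha chain that binds IgE (Fcer1a), a beta chain that amplifies the signal (Ms4a2) and a pair of gamma chains (Fcer1g) that carry the signalling motifs. Fcer1g also serves other activating receptors of myeloid cells, whereas in mice Fcer1a and Ms4a2 are largely restricted to mast cells and basophils. Cross-linking of bound IgE makes these cells release granules that hold histamine and, in mouse mast cells, serotonin. Hdc makes histamine from histidine, Tph1 carries out the rate-limiting step from tryptophan to serotonin, and Slc18a2 (VMAT2) pumps both amines into the granules. Cd200r3 is an activating receptor of mouse mast cells and basophils, and Mrgprb1 belongs to a family of G protein-coupled receptors that includes Mrgprb2, the mast cell receptor for basic secretagogues. miR-155 is a microRNA that lowers the output of messages with sites matching its seed.

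The added microRNA is shown first. The labels name only miR-155, and its major mature strand in RefSeq lies on build GRCm38.p6 at chr16:84714143-84714165 on the plus strand. It is 23 bases long, and the capitals mark the seed, bases 2 to 8.
mmu-miR-155-5p: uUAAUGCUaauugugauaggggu

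Promoter sequence is shown for the 3 receptor chains, Slc18a2 and Cd200r3, because 4 of them fell together with miR-155 while Fcer1g did not pass the test, and because Gata1 and Gata2, whose products bind GATA words, are described with them below. RefSeq (GRCm38.p6) gives, for each gene, a window of 250 bases before an annotated transcript start, which need not be the outermost start. The windows of Fcer1a, Ms4a2 and Cd200r3 run into the annotated span of the gene by 3, 71 and 82 bases. Each line below holds only the bases outside that span, read 5′ to 3′ on the gene's strand. The capitals mark GATA words, which are AGATAA, with a changed end AGATAG, with a changed start TGATAA, or with both changed TGATAG. They also mark the E-box words CACGTG or CATGTG. Both strands were searched, so a word of the other strand appears as its reverse complement. The lines lie at chr1:173227233-173227479 (Fcer1a, minus strand), chr19:11623791-11623969 (Ms4a2, minus), chr1:171234350-171234599 (Fcer1g, minus), chr19:59260628-59260877 (Slc18a2, plus) and chr16:44943428-44943595 (Cd200r3, plus).
Fcer1a: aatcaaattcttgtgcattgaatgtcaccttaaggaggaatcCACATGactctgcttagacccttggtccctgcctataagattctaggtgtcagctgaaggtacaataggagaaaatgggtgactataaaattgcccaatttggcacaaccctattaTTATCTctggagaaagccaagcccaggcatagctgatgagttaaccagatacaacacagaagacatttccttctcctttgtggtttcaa
Ms4a2: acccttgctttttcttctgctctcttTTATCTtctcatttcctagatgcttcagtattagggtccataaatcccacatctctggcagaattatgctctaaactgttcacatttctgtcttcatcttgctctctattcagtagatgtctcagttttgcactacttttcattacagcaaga
Fcer1g: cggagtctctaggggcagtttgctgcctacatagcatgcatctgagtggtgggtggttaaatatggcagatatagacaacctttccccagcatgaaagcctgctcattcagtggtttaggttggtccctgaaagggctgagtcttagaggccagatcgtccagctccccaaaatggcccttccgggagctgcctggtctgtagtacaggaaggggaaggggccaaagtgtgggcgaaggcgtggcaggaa
Slc18a2: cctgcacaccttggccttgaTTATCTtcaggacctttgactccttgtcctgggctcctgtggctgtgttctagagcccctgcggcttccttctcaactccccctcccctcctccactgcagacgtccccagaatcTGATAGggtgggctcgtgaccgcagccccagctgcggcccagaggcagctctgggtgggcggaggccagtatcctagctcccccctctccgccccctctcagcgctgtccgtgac
Cd200r3: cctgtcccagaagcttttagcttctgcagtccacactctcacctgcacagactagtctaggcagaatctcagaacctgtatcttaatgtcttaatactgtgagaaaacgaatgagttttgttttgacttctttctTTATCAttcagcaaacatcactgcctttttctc
Outside the gene spans, Slc18a2 holds 2 GATA words, Ms4a2 and Cd200r3 hold 1 each, and Fcer1a holds 1 together with an E-box word. Fcer1g holds neither. RefSeq gives 9 such windows for the 8 genes, since Tph1 has 2 starts, and 2 of the 9, that of Hdc and 1 of Tph1, lie wholly inside the gene. A GATA word was found in 7 of the 9 windows, and in 26.5% of the 32851 windows of all genes. Of the 7 windows with bases outside the gene, 6 held a GATA word there. The windows without a GATA word are those of Fcer1g and of the other Tph1 start. Mrgprb1, whose line is not shown and which did not pass the test with miR-155 either, holds 2 GATA words outside its gene. An E-box word was found in 1 of the 9, and in 17.6% of all windows. A match is a run of letters and was not tested as a binding site. Neither word overlaps the other in these windows.

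The array facts that bear on these genes are few. Hoxa9 read 13.07 to 13.41 on all 12 arrays, and Meis1 read 12.11 where it was added and 6.74 to 8.10 elsewhere. Against the label of female mice, the MIY pair and the Meis1 array read high for the Y-linked Eif2s3y (8.24 to 9.31) and Kdm5d (6.89 to 8.15). The other 9 arrays read 2.22 to 2.48 and 3.32 to 3.50. Every comparison with MIY or Meis1 therefore also compares arrays that differ in these genes, and the comparisons among the other groups are given with and without those 3 arrays. The mast cell and basophil proteases Cpa3 (11.38 to 12.88 as group means) and Mcpt8 (9.26 to 11.66) were well above the array medians of 6.33 to 6.49 in every group. So were Ptprc, the pan-leukocyte marker (10.49 to 11.16), and the progenitor marker Cd34 (9.36 to 10.70). The proteases Tpsb2 (5.29 to 5.80), Mcpt1 (3.85 to 4.03) and Mcpt2 (3.99 to 4.35) averaged below these medians in MIG, knockout and miR-155. Since every probe set has its own brightness, these levels do not show which cells were present.

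**Figure D1:**
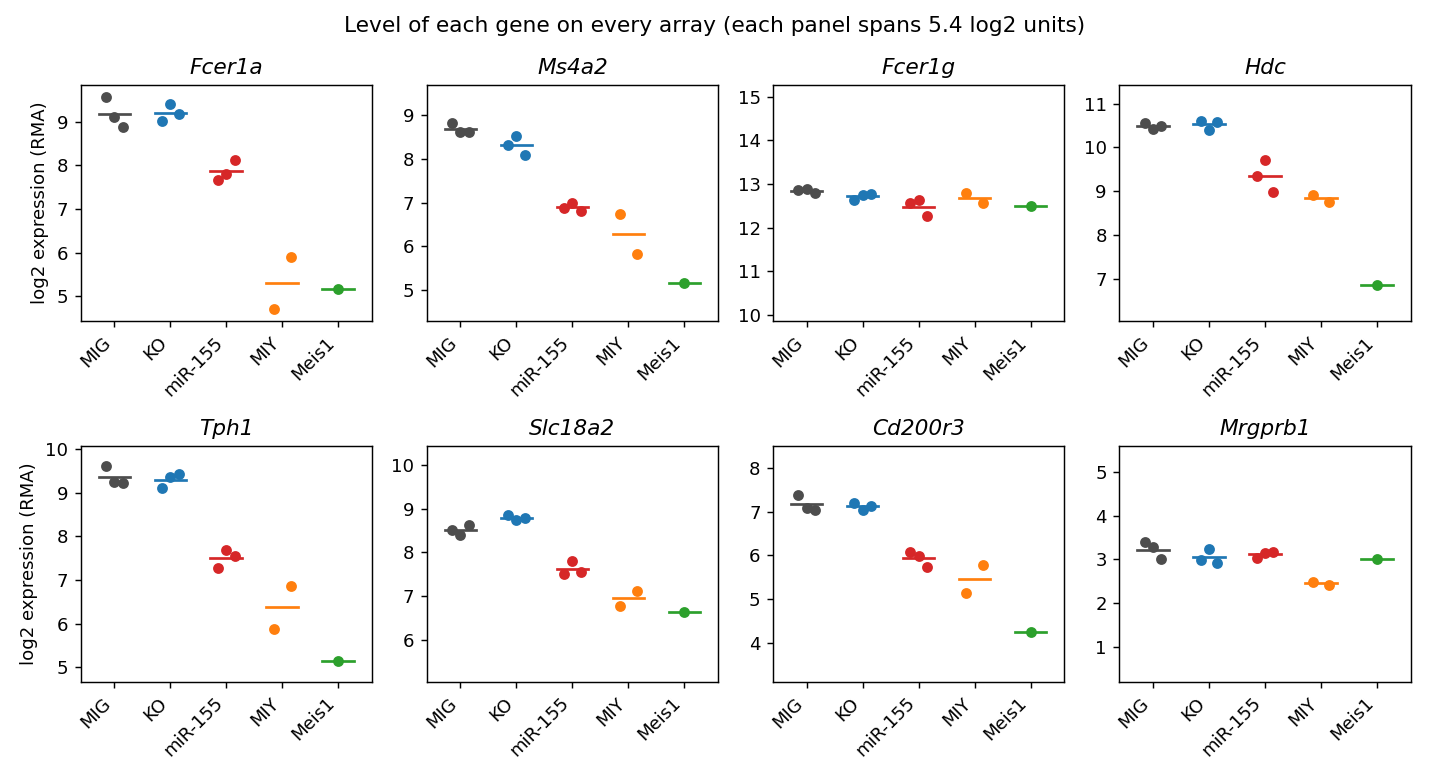
Log2 RMA level of each of the 8 genes (y axis, 5.4 log2 units in every panel) on each array (points) in the 5 groups (x axis), with the group mean as a bar. Fcer1a, Ms4a2, Hdc, Tph1, Slc18a2 and Cd200r3 are highest in MIG and the knockout, lower with miR-155 and lower again in MIY and on the Meis1 array, while Fcer1g stays between 12.26 and 12.88 and Mrgprb1 between 2.42 and 3.39.

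The comparison of miR-155 with MIG asks what added miR-155 does to these genes in Hoxa9 cells. The alpha and beta chains of the IgE receptor, both amine-making enzymes, the vesicular amine pump and Cd200r3 were lower with miR-155, by 1.86-fold to 3.61-fold, while the gamma chain and Mrgprb1 did not pass the test. In limma's test at an adjusted p under 0.05, 6 of the 8 genes were called lower and none higher, where 2.68% of all probe sets tested were called lower. The median log2 change of the 8 genes was -1.19, against -0.01 for all probe sets tested. In these bulk samples, fewer cells of a type and less RNA per cell cannot be told apart.

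Ms4a2, the beta chain (probe set 6871568, chr19:11615517-11623790), read 8.83, 8.62 and 8.61 in MIG and 6.87, 6.99 and 6.82 with miR-155. The groups lie far apart compared with the spread inside each of them. The log2 change was -1.79 ± 0.20 (SE, n = 3 against 3, limma adjusted p = 0.00132), which is 3.47-fold lower. Fcer1a, the IgE-binding alpha chain (probe set 6764205, chr1:173221269-173227232), read 9.57, 9.10 and 8.87 in MIG and 7.65, 7.80 and 8.12 with miR-155. It was lower on every miR-155 array than on any MIG array, but its arrays were more scattered than those of Ms4a2. Its change was -1.32 ± 0.28 (adjusted p = 0.0340), or 2.50-fold lower. This call was lost in all 6 fits that left out an array of either group, where the change lay between -1.48 and -1.13 and the adjusted p between 0.0622 and 0.132. In the fit without the MIY and Meis1 arrays, added after the data were seen, the adjusted p of Fcer1a was 0.00358.

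Fcer1g, the shared gamma chain (probe set 6764049, chr1:171229572-171234349), read 12.87, 12.88 and 12.80 in MIG and 12.57, 12.62 and 12.26 with miR-155. The arrays did not overlap, yet the difference was small. The change was -0.37 ± 0.10 with a 95% interval from -0.59 to -0.14, and it did not pass over all probe sets (adjusted p = 0.0989, and 0.0575 on the 9 arrays). Its level lies close to the top of each array (13.59 to 13.78), a range in which array signals can flatten. Differences between its change and those of the other chains are therefore not read here. They were computed, and are among the 30 differences adjusted for below.

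Tph1, the first enzyme of serotonin synthesis (probe set 6967054, chr7:46644641-46672537), had the steepest difference of the 8 genes. It read 9.61, 9.23 and 9.22 in MIG and 7.27, 7.68 and 7.55 with miR-155. The change was -1.85 ± 0.23 (adjusted p = 0.00194), or 3.61-fold lower. Hdc, the histamine-forming enzyme (probe set 6890636, chr2:126593659-126624025), read 10.57, 10.43 and 10.49 in MIG and 9.35, 9.71 and 8.98 with miR-155. The miR-155 arrays of Hdc spread over 0.37 (SD) against 0.07 in MIG, but stayed below all MIG arrays. Its change was -1.15 ± 0.15 (adjusted p = 0.00326), or 2.22-fold lower. Slc18a2, the granule amine pump (probe set 6870785, chr19:59260878-59296012), read 8.52, 8.40 and 8.62 in MIG and 7.50, 7.81 and 7.55 with miR-155. It fell by 0.89 ± 0.11 (adjusted p = 0.00215), which is 1.86-fold and the smallest of the 6 called changes. The change of Tph1 minus that of Slc18a2 was -0.96 and minus that of Hdc -0.70, while Slc18a2 minus Hdc was 0.26 (exact two-sided permutation p = 0.2). For the first 2 of these the exact permutation p was 0.1, the smallest that 3 arrays against 3 allow (0.167 adjusted over 30 such differences), so the design could not separate them.

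Cd200r3, the activating receptor (probe set 6841149, chr16:44943596-45058365), read 7.38, 7.07 and 7.03 in MIG and 6.07, 5.98 and 5.73 with miR-155. All MIG arrays lay more than the groups' spread above all miR-155 arrays. The change was -1.24 ± 0.16 (adjusted p = 0.00289), or 2.35-fold lower. Mrgprb1 (probe set 6967191, chr7:48444113-48456342) read 3.39, 3.28 and 3.01 in MIG and 3.04, 3.15 and 3.17 with miR-155, and the groups overlapped. Its change was -0.11 ± 0.11, with an interval from -0.36 to 0.14 (adjusted p = 0.751). All of its values lie below the arrays' lower quartiles of 4.75 to 4.91, and its relative Mrgprb2 had group means of 2.46 to 3.19. The arrays' background was not measured, and levels this low are inexact. In all, 7 of the 8 genes, Mrgprb1 being the exception, had every miR-155 array below every MIG array, against 15.1% of all probe sets. Without the MIY and Meis1 arrays the same 6 genes were called, with adjusted p-values of 8.25e-05 to 0.00358. The share of all probe sets called in that fit is not given here, so this count has no background beside it.

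**Figure D2:**
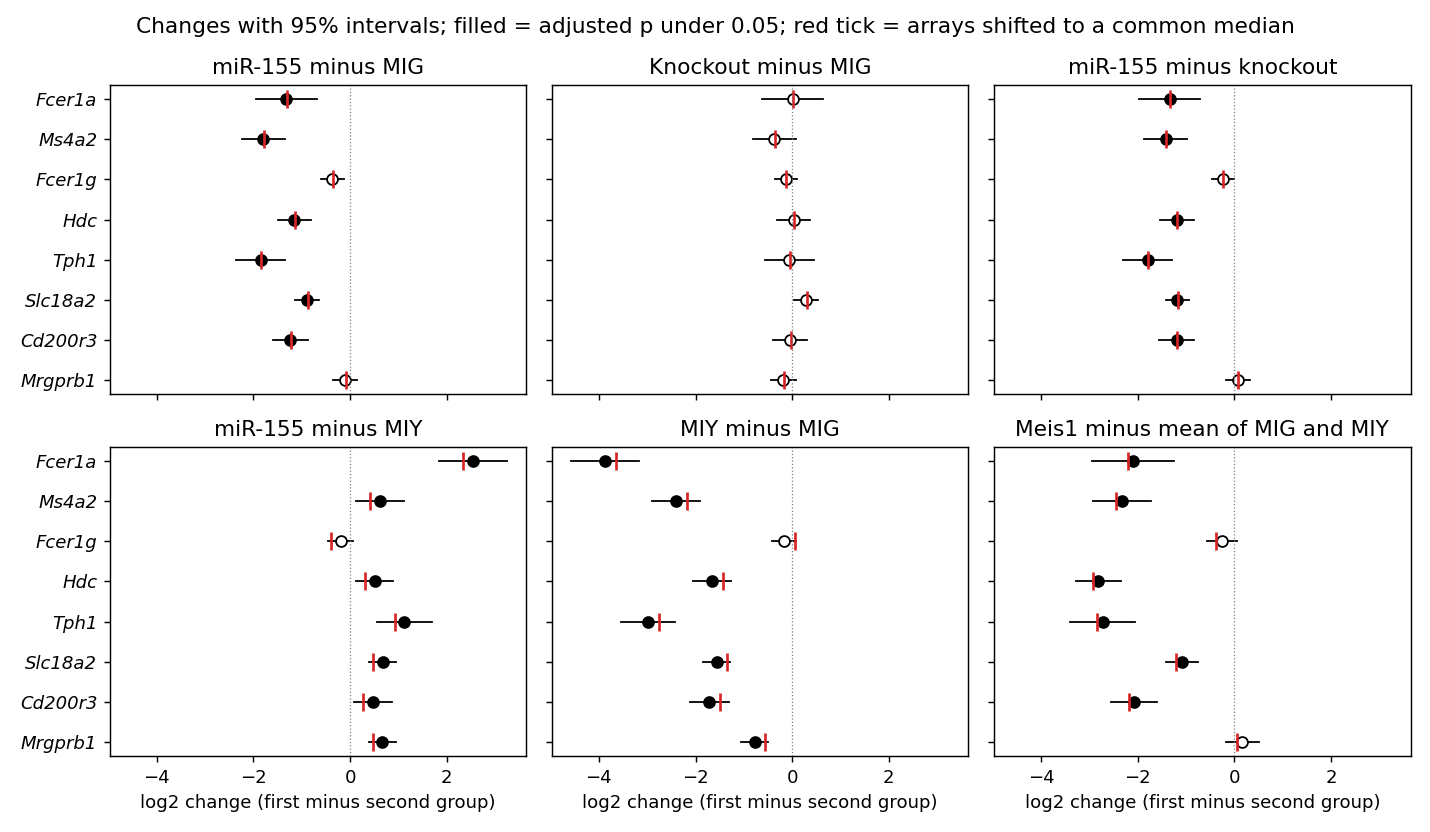
Log2 change of each gene (x axis, first group minus second) in the 6 comparisons, with 95% intervals from limma. Filled points have an adjusted p under 0.05. The red tick is the change after every array is shifted to a common median difference from the genes' means over the 12 arrays. The figure's title shortens this to a common median. The changes of miR-155 against MIG and against the knockout share the 3 miR-155 arrays and lie between -1.85 and 0.07, while all intervals of the knockout against MIG but that of Slc18a2 include 0.

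Genes of the wider IgE receptor and amine pathways were counted from lists chosen with earlier results of these data known. Of 21 measured genes of IgE receptor signalling, which holds the kinases and adaptors below the receptor, none was called in miR-155 against MIG, 4 had an unadjusted p under 0.05, and the median change was -0.10. Of 9 brakes on the receptor, 3 fell and none rose (median -0.26). They were Inpp5d, the inositol phosphatase SHIP1 and a known miR-155 target, by 0.39 ± 0.06 (adjusted p = 0.00854), Spred1, an inhibitor of Ras signalling, by 0.35 ± 0.06 (0.00983), and the inhibitory receptor Cd300lf by 1.06 ± 0.18 (0.0126). Of 7 receptors that share the gamma chain or partner with it, only Clec4n (Dectin-2) fell, by 0.93 ± 0.14 (adjusted p = 0.006), with a list median of -0.20.

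In the amine pathway, 1 of 15 measured genes fell and none rose (median -0.12). That gene was Pcbd1, which recycles the biopterin cofactor needed by Tph1, and it fell by 0.98 ± 0.15 (adjusted p = 0.00566). Ddc, which turns the product of Tph1 into serotonin, averaged 5.09 ± 0.05 in MIG and 4.93 ± 0.15 with miR-155 (SD, n = 3 each) and was not called. Hnmt, which inactivates histamine, averaged 6.20 ± 0.14 and 4.76 ± 0.23 and was not called. Its MIY arrays, which enter the shared spread, had an SD of 1.49 (n = 2). Among 9 amine receptors, the histamine receptor Hrh4 fell by 0.64 ± 0.13 (adjusted p = 0.0297) and the serotonin receptor Htr2a rose by 0.40 ± 0.09 (adjusted p = 0.0455), with a median of -0.02. Of 15 genes of the granule matrix and its release, Rab27b, a small GTPase that docks granules, fell by 0.75 ± 0.09 (adjusted p = 0.00157) and no other passed (median -0.11). The granule proteoglycan core Srgn averaged 13.48 ± 0.07 in MIG and 13.37 ± 0.05 with miR-155, also close to the top of each array. Of 9 leukotriene and prostaglandin genes, Cysltr1, a leukotriene receptor, fell by 0.95 ± 0.14 (adjusted p = 0.00575) and Ltc4s, the leukotriene C4 synthase, by 0.56 ± 0.13 (adjusted p = 0.0467), with a median of -0.14.

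Other genes that mark mast cells and basophils were lower as well. Of 10 measured mast cell and basophil proteases, 6 fell and none rose (median -1.11), among them Prss34 by 2.12 ± 0.09 (adjusted p = 4.35e-06), the chymase Cma1 by 2.03 ± 0.19 (0.000485), the basophil protease Mcpt8 by 1.30 ± 0.11 (0.000324) and the carboxypeptidase Cpa3 by 1.13 ± 0.09 (0.000324). The mean log2 level of these 10 genes was 8.62 to 8.74 on the MIG arrays and 7.61 to 7.72 on the miR-155 arrays. Of 17 other surface genes, 5 fell and none rose (median -0.25), including the adenosine receptor Adora3 by 1.44 ± 0.19 (adjusted p = 0.00331) and the SCF receptor Kit by 0.37 ± 0.08 (0.0299). Of 16 regulators, 4 fell and none rose (median -0.10): Gata2 by 0.93 ± 0.19 (adjusted p = 0.0237), Gata1 by 0.64 ± 0.10 (0.00817), Cebpb by 0.46 ± 0.10 (0.0389) and Spi1 by 0.50 ± 0.12 (0.0496). Mitf, the mast cell regulator downstream of Kit, averaged 8.93 ± 0.10 and 8.74 ± 0.10 and was not called. Several of the calls named from these lists lay near the threshold. Over 16 other settings the call was lost in 10 for Spi1 (adjusted p = 0.0589 on arrays shifted to a common median difference). The call was lost in 8 each for Cebpb and Hrh4, in 7 each for Htr2a and Ltc4s and in 6 each for Gata2 and Kit. It was lost in 2 for Cd300lf and in 1 each for Inpp5d and Spred1.

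Markers of other cell types moved beside them. Of 7 eosinophil genes, 4 fell and none rose (median -0.96), among them Prg2 by 2.21 ± 0.30 (adjusted p = 0.00342) and Epx by 2.13 ± 0.25 (0.00158), and their mean level was 7.20 to 7.53 on MIG arrays and 6.17 to 6.33 on miR-155 arrays. Of 9 monocyte and macrophage genes, 6 fell and none rose (median -0.84), and their mean level was 9.73 to 9.85 against 8.87 to 9.08. Of 9 neutrophil genes, 1 fell (median -0.27), with mean levels of 10.77 to 10.86 against 10.43 to 10.51. Of 9 progenitor genes, 1 fell (median -0.13), with mean levels of 11.27 to 11.32 against 11.13 to 11.23. That gene was Kit, which is also counted among the surface genes. Of 7 red cell and megakaryocyte genes, 3 fell (median -0.29), with mean levels of 7.17 to 7.22 against 6.81 to 6.98, and Gata1 is in that list too. Of 7 B and T cell genes, 1 fell, Il7r (median -0.08), with mean levels of 6.37 to 6.54 against 6.06 to 6.22. RMA gives no value of 0, so absence cannot be read from these levels. The part of these other cells in the changes of the IgE receptor and amine genes was not tested.

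**Figure D3:**
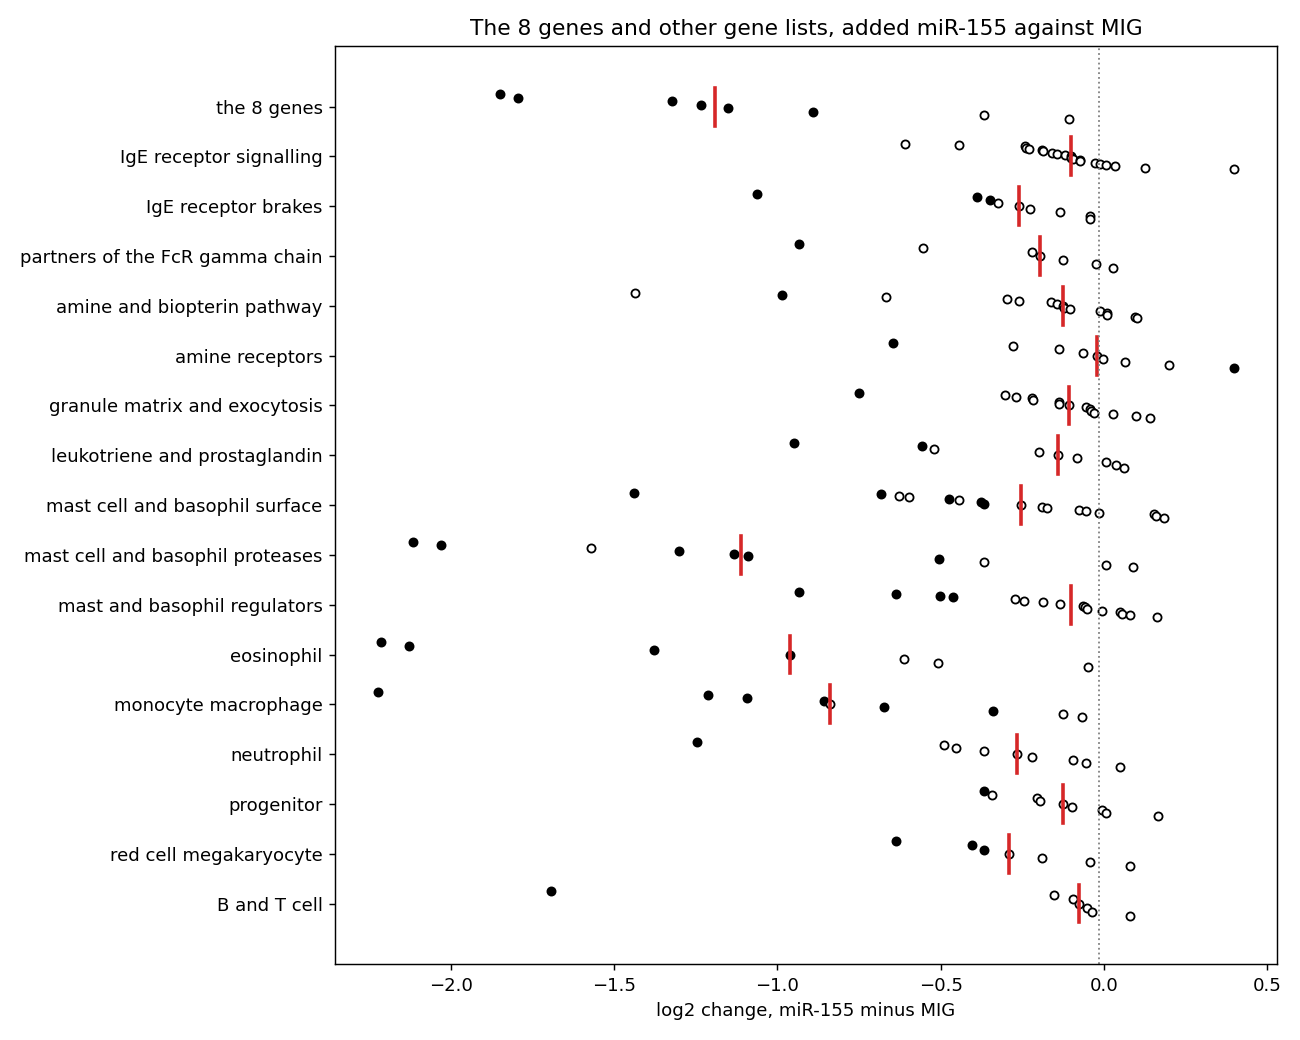
Log2 change of miR-155 against MIG (x axis) for the 8 genes and for each gene list (rows); points are genes, filled where the limma adjusted p is under 0.05, red bars are list medians and the dotted line is the median of all probe sets tested, -0.01. The medians of the 8 genes (-1.19), of the mast cell and basophil proteases (-1.11) and of the eosinophil genes (-0.96) lie furthest to the left, while the IgE receptor signalling list sits at -0.10 with no filled point.

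The comparison of the knockout with MIG asks whether the cells' own miR-155 affects these genes. None of the 8 genes was called by limma, where 0.0312% of all probe sets tested (5 probe sets) were called in either direction. At an unadjusted p under 0.05 there was 1 of the 8, Slc18a2, and 774 of all 16015. Slc18a2 read 8.85, 8.75 and 8.79 in the knockout, above the MIG arrays of 8.40 to 8.62. Its change was 0.29 ± 0.11, with a 95% interval from 0.04 to 0.53 (adjusted p = 0.996), which is opposite in sign to its change with added miR-155. On the 9 arrays without MIY and Meis1, none of the 8 genes was called either (lowest limma adjusted p = 0.431, for Ms4a2). For that fit, the share of all probe sets called is not given here.

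The receptor chains were close to MIG. Fcer1a read 9.002, 9.40 and 9.16 in the knockout, inside the MIG range of 8.87 to 9.57, and its change was 0.01 ± 0.28 (interval -0.62 to 0.64). Ms4a2 read 8.32, 8.53 and 8.10, all just below the MIG arrays, with a change of -0.37 ± 0.20 (interval -0.81 to 0.07). Fcer1g read 12.63, 12.75 and 12.76, also below the MIG arrays, with a change of -0.13 ± 0.10 (interval -0.36 to 0.10). Ms4a2 and Fcer1g were thus the 2 genes whose knockout arrays all lay below MIG, against 8.91% of all probe sets, and Slc18a2 the only gene of the 8 with all knockout arrays above, against 5.91%.

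Both enzymes overlapped with MIG. Hdc read 10.61, 10.39 and 10.59, with a change of 0.03 ± 0.15 (interval -0.31 to 0.38). Tph1 read 9.10, 9.36 and 9.43, with a change of -0.06 ± 0.23 (interval -0.56 to 0.44). For either enzyme, changes as large as those with added miR-155 lie outside these intervals. Cd200r3 read 7.20, 7.04 and 7.12 (change -0.04 ± 0.16, interval -0.40 to 0.32) and Mrgprb1 read 2.98, 3.24 and 2.93 (change -0.18 ± 0.11, interval -0.43 to 0.07). Over all of the gene lists, the protease Prss34 was the only gene called in this comparison as deposited, and it fell by 0.78 ± 0.09 (adjusted p = 0.0318), a call lost in 9 of 16 other settings. Kit averaged 9.33 in the knockout and 9.91 in MIG, with no overlap of the arrays. Its change of -0.58 ± 0.08 missed the threshold (adjusted p = 0.0534) and passed on arrays shifted to a common median difference (0.0342). With added miR-155, Kit averaged 9.54, above the knockout by 0.21 ± 0.08 (adjusted p = 0.204).

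Set against the knockout, the miR-155 cells showed the same 6 genes called lower, where 2.98% of all probe sets tested were called lower. This comparison uses the same miR-155 arrays as that with MIG, so the values are given side by side and not as a second line of evidence. Ms4a2 fell by 1.42 ± 0.20 (limma adjusted p = 0.00344), against 1.79 relative to MIG. Fcer1a fell by 1.33 ± 0.28 (adjusted p = 0.0286), a call lost in all 6 fits without an array of either group (adjusted p = 0.0554 to 0.112) and held on the 9 arrays (0.00289). Fcer1g changed by -0.23 ± 0.10 and did not pass (adjusted p = 0.307). On the 9 arrays the same 6 genes were called, with limma adjusted p-values of 0.000162 to 0.00289. Again, the share of all probe sets called on the 9 arrays is not given here.

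Among the amine genes, Tph1 fell by 1.79 ± 0.23 (adjusted p = 0.00204), Hdc by 1.18 ± 0.15 (0.00242) and Slc18a2 by 1.18 ± 0.11 (0.000478), the last against 0.89 relative to MIG. Cd200r3 fell by 1.19 ± 0.16 (adjusted p = 0.00278), and Mrgprb1 changed by 0.07 ± 0.11 (adjusted p = 0.828). As with MIG, 7 of the 8 genes had every miR-155 array below every knockout array, against 13.5% of all probe sets. Of the 15 amine pathway genes, 2 fell here: Pcbd1 by 1.14 ± 0.15 (adjusted p = 0.00229) and the serotonin transporter Slc6a4 by 0.42 ± 0.07 (0.0117). Of the 21 signalling genes, none was called, and 5 had an unadjusted p under 0.05.

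The comparison of MIY with MIG asks how far the empty-vector controls lie apart. Most of the IgE receptor and amine genes were far lower in MIY. By limma, 7 of the 8 genes were called lower in MIY. The background was high: 40.4% of all probe sets tested were called lower and their median change was -0.22. With all arrays shifted to a common median difference from the genes' means, 7 of the 8 genes were again called lower, against 18.7% of all probe sets. Every MIY array lay below every MIG array for all 8 genes, against 52.3% of all probe sets. The arrays of MIY and MIG also differ in the Y-linked genes, and vector and culture cannot be told apart.

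Fcer1a differed most, reading 4.71 and 5.91 in MIY against 8.87 to 9.57 in MIG. Its change was -3.87 ± 0.32 (n = 2 against 3, limma adjusted p = 1.74e-05), or 14.6-fold lower, and -3.65 after the shift. The size of this change is inexact. On MIY array 1, Fcer1a lay just below that array's lower quartile of 4.75. With single arrays left out, its change ran from -4.47 to -3.27. Tph1 read 5.89 and 6.87 in MIY, with a change of -2.98 ± 0.25 (adjusted p = 2.12e-05, -2.75 after the shift). Ms4a2 read 6.74 and 5.83, with a change of -2.41 ± 0.22 (adjusted p = 3.52e-05, -2.18 after the shift). The MIY pair did not rank alike: array 1 was the lower of the pair for Fcer1a, Tph1, Slc18a2 and Cd200r3, and array 2 for Ms4a2, Fcer1g, Hdc and Mrgprb1.

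The remaining genes differed less. Cd200r3 read 5.13 and 5.77 (-1.71 ± 0.18, -1.49 after the shift), Hdc 8.91 and 8.76 (-1.66 ± 0.17, -1.44 after the shift) and Slc18a2 6.78 and 7.12 (-1.56 ± 0.12, -1.34 after the shift), with adjusted p-values of 1.38e-05 to 7.47e-05. Mrgprb1 read 2.49 and 2.42, a change of -0.78 ± 0.13 (adjusted p = 0.00081, -0.55 after the shift) at the low end of the arrays. Fcer1g read 12.79 and 12.57 and did not pass, with -0.17 ± 0.12 as deposited and 0.06 after the shift. The lists are read against the 40.4% of all probe sets called lower and their median of -0.22. Of 15 amine pathway genes, 7 were lower and 1 higher (median -0.47, -0.24 after the shift), led by Slc6a4 (-1.84 ± 0.08), Pcbd1 (-1.83 ± 0.16) and the monoamine oxidase Maob (-1.90 ± 0.19). Of 21 signalling genes, 6 were lower and 2 higher, with the adaptor Lat at -1.72 ± 0.10, but the list's median was -0.13 and turned to 0.09 after the shift. Of 10 proteases, 7 were lower (median -1.60, -1.37 after the shift), and of 16 regulators, 11 (median -0.50, -0.28 after the shift). Rab27b (-2.86 ± 0.10) and the leukotriene enzyme Alox5 (-2.97 ± 0.17) stood out in their lists, with array-shifted changes of -2.64 and -2.75.

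Against MIY, the control that the design text names, the genes lay above the control with added miR-155 rather than below it. As deposited, 7 of the 8 genes were called higher, where 38.5% of all probe sets tested were called higher and their median change was 0.21. With all arrays shifted to a common median difference, 4 were higher, against 18.2% of all probe sets, 1 was lower, against 19.6%, and 3 were not called. The 4 were Fcer1a (2.55 ± 0.32 as deposited, 2.34 shifted), Tph1 (1.12 ± 0.25, 0.92 shifted), Slc18a2 (0.67 ± 0.12, 0.47 shifted) and Mrgprb1 (0.67 ± 0.13, 0.47 shifted). The gamma chain Fcer1g was the lower gene after the shift, at -0.40 (adjusted p = 0.0227), while its deposited change of -0.20 ± 0.12 did not pass (adjusted p = 0.181).

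Ms4a2 (0.61 ± 0.22, adjusted p = 0.0434), Hdc (0.51 ± 0.17, adjusted p = 0.0331) and Cd200r3 (0.48 ± 0.18, adjusted p = 0.0497) were called as deposited and not after the shift, where their changes were 0.41, 0.31 and 0.27. Their calls also depended on single arrays: without miR-155 array 1 or 2, 4 of the 8 genes were called. Single MIY arrays moved the values further. The change of Cd200r3 was 0.16 without MIY array 1 (adjusted p = 0.440) and 0.79 without array 2. That of Ms4a2 was 0.16 without MIY array 2 (adjusted p = 0.454) and 1.07 without array 1. Hdc missed the threshold without either (adjusted p = 0.0541 and 0.150) and was at 0.33 without miR-155 array 2. Tph1 was called each time, at 0.64 without MIY array 1 and 1.61 without array 2. On the arrays themselves, Ms4a2 read 6.82 to 6.99 with miR-155 and 5.83 and 6.74 in MIY, and Cd200r3 read 5.73 to 6.07 against 5.13 and 5.77, so that Cd200r3 overlapped. For 6 genes, all but Fcer1g and Cd200r3, every miR-155 array lay above every MIY array, against 48.6% of all probe sets. For Fcer1a, Ms4a2, Hdc, Tph1, Slc18a2 and Cd200r3, the sign of the miR-155 change thus differed with the control, below 0 against MIG and above 0 against MIY in both scalings.

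With added Meis1, histamine and serotonin synthesis genes, Ms4a2 and Cd200r3 were at their lowest. As the labels name no vector control for this culture, MIG and MIY were averaged with equal weight as its control, and the lone array, with its unexplained mark, was assumed to vary as the other groups do. Of the 8 genes, 6 were called lower, where 9.93% of all probe sets tested were called lower and their median change was 0.11. With arrays shifted, 6 were called lower as well, against 13.7% of all probe sets. Hdc read 6.85, far below every other array (8.76 to 10.61), with a change of -2.81 ± 0.21 (n = 1 against 5, limma adjusted p = 1.08e-05). Tph1 read 5.14 (-2.72 ± 0.30, adjusted p = 0.000174), Ms4a2 5.16 (-2.32 ± 0.27, 0.000214) and Cd200r3 4.23 (-2.07 ± 0.22, 0.000111), each below all of the other 11 arrays.

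Fcer1a read 5.16, between the MIY values of 4.71 and 5.91, so its change of -2.09 ± 0.38 (adjusted p = 0.00362) rests on MIG. Against MIG alone it was -4.02, and against MIY alone -0.15 (adjusted p = 0.789). Slc18a2 read 6.64 (-1.09 ± 0.15, adjusted p = 0.000662), with -1.87 against MIG alone and -0.31 against MIY alone (adjusted p = 0.155). Hdc (-1.98), Cd200r3 (-1.22), Tph1 (-1.23) and Ms4a2 (-1.12) were called lower against MIY alone too, with adjusted p-values of 0.000200 to 0.0150. Fcer1g read 12.50 (-0.26 ± 0.14, adjusted p = 0.187) and Mrgprb1 3.01 (0.17 ± 0.15, adjusted p = 0.441), and Mrgprb1 had opposite signs against the 2 controls, -0.22 against MIG and 0.55 against MIY (adjusted p = 0.0232).

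On the same array, 3 of the 7 partner receptors of the gamma chain were called lower and 4 did not pass, with Clec4n at -5.51 ± 0.19 and a list median of -0.02. All 9 neutrophil genes were called lower (median -3.53), as were 8 of 9 monocyte and macrophage genes (median -3.14). The mean level was 7.09 for the neutrophil list against 9.60 to 10.86 on the MIG and MIY arrays, and 6.95 for the monocyte list against 9.40 to 10.11. Of 10 proteases, 6 were lower and 1 higher, and Cpa3, at 11.38, changed by -0.81 ± 0.13 (adjusted p = 0.00159). The lower calls of Cpa3, Cma1 and Prss34 rest on MIG. They were lost against MIY alone, where the change of Prss34 was 0.20. All of these lists are read against the 9.93% of all probe sets tested that were called lower. Kit read 10.06, against 9.32 to 9.92 on the MIG and MIY arrays. The part of these other cells in the low levels of the 8 genes was not tested.

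**Figure D4:**
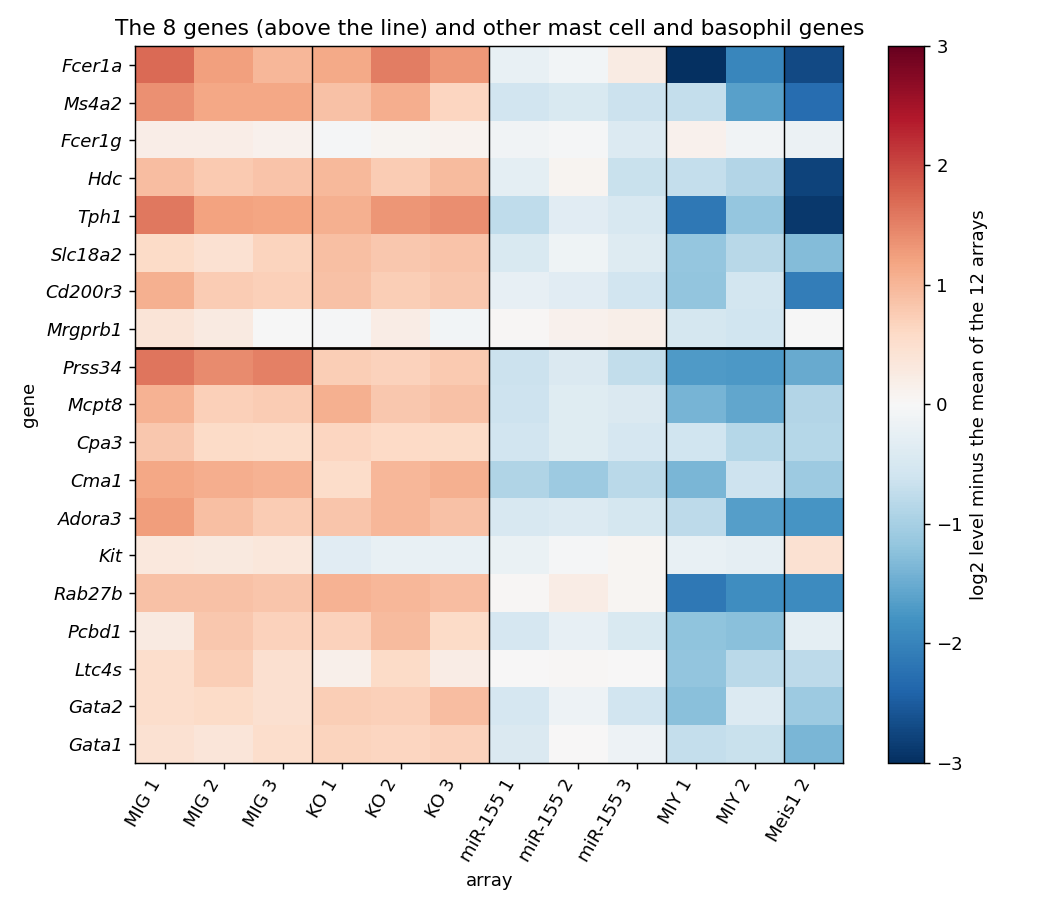
Log2 level minus the gene's mean over the 12 arrays (colour, limits -3 and 3) for the 8 genes above the line and 11 genes of the other lists below it (rows), on every array (columns). All 11 were picked among genes called lower with miR-155 against MIG, so they do not show how their lists moved as a whole. The 6 MIG and knockout arrays are red for Fcer1a, Ms4a2, Hdc, Tph1, Slc18a2 and Cd200r3. For these genes the miR-155 arrays are paler and mostly on the blue side, and the MIY and Meis1 arrays are generally bluer. Fcer1g and Mrgprb1 stay pale.

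By group, the mean levels of 6 genes followed the same order. For Fcer1a, Ms4a2, Hdc, Tph1, Slc18a2 and Cd200r3, MIG and the knockout were highest and were not separated by the test. Added miR-155 came next, then MIY, then the Meis1 array. The step from the knockout or MIG to miR-155 passed for all 6 genes. The step from miR-155 to MIY passed for all 6 as deposited, and after the shift for Fcer1a, Tph1 and Slc18a2. The step from MIY to the Meis1 array, tested as deposited, passed for Ms4a2, Hdc, Tph1 and Cd200r3, but with 1 Meis1 array this test takes its spread from the other groups. Fcer1g, with 12.85 ± 0.04 in MIG, 12.72 ± 0.08 in the knockout, 12.68 ± 0.16 in MIY, 12.48 ± 0.20 with miR-155 and 12.50 on the Meis1 array, had no step that passed as deposited.

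The span from the lowest to the highest array was 4.86 log2 units for Fcer1a, 4.46 for Tph1, 3.76 for Hdc, 3.67 for Ms4a2, 3.15 for Cd200r3, 2.20 for Slc18a2, 0.98 for Mrgprb1 and 0.62 for Fcer1g. Over the 9 arrays of MIG, miR-155 and the knockout, the spans were 2.34 for Tph1, 2.01 for Ms4a2, 1.92 for Fcer1a and 0.62 for Fcer1g. Among the 8 genes, Fcer1a and Fcer1g had the largest root mean square difference over the 12 arrays, 1.58 log2 units after centring each gene on its mean. Hdc and Cd200r3 (0.30), Slc18a2 and Cd200r3 (0.31) and Ms4a2 and Hdc (0.39) were among the closer pairs. These distances also grow with a gene's span. The largest one pairs the widest span with the narrowest, and Fcer1a with the nearly flat Mrgprb1 was at 1.44. The small value for Fcer1g and Mrgprb1 (0.31) says only that both were nearly flat.

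The genes of most similar pattern were found by the same distance over 12 arrays among 4002 genes with a span of at least 1 log2 unit. Nearest to Ms4a2 were the adenosine receptor Adora3 (0.23), Naaa (0.23) and Rnf128 (0.30). Nearest to Slc18a2 were the kinase Dapk1 (0.17) and the transcription factors Gata2 (0.17) and Gata1 (0.20). Hdc lay closest to the cytokine Il6 (0.23), Lrg1 (0.27) and Olfm1 (0.27), and Cd200r3 to the kinase Fgr (0.25), the endothelin receptor Ednrb (0.29) and Hdc (0.30). Tph1 was nearest to the cadherin Cdh1 (0.30), the aminopeptidase Anpep (0.36) and the granzyme Gzmb (0.41), and Fcer1a to Tph1 (0.48), the transporter Slc7a2 (0.51) and Rab27b (0.52).

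The 3 nearest genes were Clcn5, Slc35a5 and Ctsc for the nearly flat Fcer1g (0.19 each) and E430018J23Rik, Tmem144 and Mcoln3 for Mrgprb1 (0.10 to 0.11). Fcer1g and Mrgprb1 themselves span 0.62 and 0.98, less than was asked of the genes searched. Genes as flat as these could not be listed, so the names are not their most similar genes of all. The neighbours named for the 8 genes changed with the arrays searched. The 9-array search asked for a span of at least 1 log2 unit on those arrays alone. Genes flatter there dropped out of it, so a neighbour could also be lost in this way. Over the 9 arrays without MIY and Meis1, Slc18a2 kept Gata2 (0.10) and Tph1 kept Anpep (0.17), and the other 6 genes shared none of their 3 neighbours. On those arrays the nearest gene was Adora3 for Fcer1a (0.16), Nrg1 for Ms4a2 (0.15), the lipid acyltransferase Mboat1 for Hdc (0.09) and Rnase6 for Cd200r3 (0.08), with the protease Cpa3 next (0.12).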

How the data were processed

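Total RNA of 12 cultures was measured on Affymetrix mouse arrays, per the labels' protocols with RNeasy extraction and biotin labelling. The deposited values are on the log2 scale and, per the submitters' processing notes, come from RMA run in Affymetrix Expression Console (versions not given in the sources used here). This method corrects background and quantile-normalizes probes, which narrows differences that affect most genes, and compresses changes of very bright or dim probe sets. Gene names come from GEO's platform annotation: 14996 of 23332 have 1 symbol, 1019 several and 7317 none. The 16015 with at least 1 symbol were tested, and 14941 of the first kind were found in the RefSeq gene table by gene identifier.

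Here, limma 3.58.1 (R 4.3.3) fitted a mean for each group over all 12 arrays (7 residual and 3.06 prior degrees of freedom), with Benjamini-Hochberg adjustment over 16015 probe sets and calls at an adjusted p under 0.05. Errors of changes are standard errors, and those of levels are standard deviations over a group's arrays. Nothing in the labels says which cultures came from separate mice, so p-values measure only the spread between these samples. Precision is limited by how few arrays there are, and Meis1 has only 1. No pair of arrays held identical values.

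The 8 genes and all gene lists were chosen with earlier results of these data known. The naming rule took all 8 genes, from each list up to 4 called genes of smallest p in a comparison, Hoxa9 and Meis1, and for each of the 8 genes the 3 of most similar pattern. Other names (the Y-linked pair, Ptprc, Cd34, Ddc, Hnmt, Srgn, Mitf, Mrgprb2, Tpsb2, Mcpt1, Mcpt2 and, in the knockout, Kit) were chosen after their values were seen. The fit was tested on simulated data. Other settings tried were quantile normalization, a filter at a group mean of 5, all probe sets, only the arrays compared and a trend in the prior. Array weights and the replicate number as a block were tried too. In the shifted setting, each array was moved to a common median difference from the genes' means over the 12 arrays. Single arrays were left out, and Meis1 was set against either control alone. A fit on 9 arrays was added later. Promoter and microRNA sequences are RefSeq's (GRCm38.p6), which may differ from the build of the array design.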

Additional observations from a re-analysis of the deposited data

How the results depend on the processing

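The number of the 8 genes called was 5 to 6 with miR-155 against MIG and against the knockout over 16 settings each, 0 for the knockout against MIG, 6 to 7 for MIY against MIG over 13 settings, and 5 to 6 for Meis1 over 15. The 5 are those against MIY alone, where 4 genes were lower and Mrgprb1 was higher (0.55), while Fcer1a and Slc18a2 missed the threshold. For miR-155 against MIY it was 7 as deposited but 4 after quantile normalization, with all probe sets tested, with only the arrays compared and with array weights, and 4 to 6 with single arrays left out; the cause was not tested. With miR-155 against MIG and against the knockout, 119 of 127 values for single genes kept their direction and their side of the threshold, and the 8 others were each time Fcer1a, which missed the threshold with all probe sets (adjusted p = 0.0752 and 0.0638), in every fit without an array, and in the replicate block. Samples that share a replicate number deviated from their group means with correlations of -0.07 to 0.16 (median 0.06, 4 of 9 pairs over 0.1), and those of different numbers with -0.15 to 0.11 (median -0.05, 1 of 18 over 0.1). Not every pair was over 0.1, so the numbers were not taken to pair samples. With the replicate number as a block on all 12 arrays, 5, 0, 5, 6, 7 and 6 genes were called in the order of the comparisons of miR-155 with MIG, knockout with MIG, miR-155 with the knockout, miR-155 with MIY, MIY with MIG and Meis1 with the controls, and Fcer1a had an adjusted p of 0.0590 and 0.0513 with miR-155 against MIG and against the knockout. With the block on 9 arrays, Fcer1a passed (0.0156 and 0.0133). For miR-155 against MIY, 27 of 103 values fell short of the threshold in another setting. Signs changed as follows. In the knockout against MIG, Fcer1a read -0.0152 with array weights, and with single arrays left out the changes ran from -0.14 to 0.21 for Fcer1a, from -0.126 to 0.0695 for Tph1, from -0.108 to 0.0696 for Cd200r3 and from -0.0077 to 0.103 for Hdc. In MIY against MIG, Fcer1g read 0.056 on arrays shifted to a common median difference. For Meis1 the sign turned with the control for called changes too: against MIY alone, Rab27b went from -1.30 to 0.13, Prss34 from -1.41 to 0.20 and Itga2b from -0.55 to 5e-04, and against MIG alone Cebpa went from 0.56 to -0.0013 and the uncalled Mrgprb1 from 0.17 to -0.22. Of 243 combinations of a named list gene and a comparison, 163 were called in every setting. Each of the 8 genes has a single probe set, so a mean over probe sets could not be tried. With 1 array, Meis1 has no spread of its own, and bright Fcer1g and dim Mrgprb1 lie where the arrays follow a change least.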
